A study of Mus musculus with 60 samples.

Results

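The genes described here are 10 targets, partners and carriers of the glucocorticoid and metallothionein responses, out of 35999 genes in the table: Sgk1, Fkbp5, Tsc22d3, Zbtb16, Mt1, Mt2, Pdk4, Cdkn1a, Nr3c1 and Errfi1. The list was chosen by measured values, because Sgk1 FPKM differed strongly between AD and WT astrocytes at 6 and 12 months, so those contrasts are given below as a description with no test. The samples were astrocytes (sorted on ACSA2) and microglia (sorted on CD11b with low to intermediate CD45) from whole brains of male APP-PS1 mice, called AD mice, which carry mutant APP and PS1 transgenes and develop amyloid plaques, and of their C57BL/6 littermates (WT mice). Mice were 2, 4, 6, 9 or 12 months old and no group received an agent. The labels list 3 samples, each from 1 brain, for every combination of genotype, age and cell type, 60 samples in 20 groups. Each gene had 1 deposited FPKM value (fragments scaled to gene length and library size) per group.

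Corticosterone enters glial cells and binds the glucocorticoid receptor, the product of Nr3c1, which leaves its chaperone complex, enters the nucleus and binds DNA at palindromes close to AGAACA and TGTTCT set 3 bases apart. Genes such as Sgk1, Tsc22d3, Fkbp5 and Zbtb16 are induced within hours, and Fkbp5 protein in turn lowers the receptor's affinity for hormone. Mt1 and Mt2 encode small cysteine-rich proteins that bind zinc and copper, and they respond both to metals through the factor Mtf1 and to glucocorticoids. In the brain, metallothioneins and several steroid targets are known mainly from astrocytes.

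RefSeq promoter windows (GRCm38.p6, 250 bases before to 50 after a start) were available for 8 of the 10 genes, 17 windows in all. Zbtb16 and Nr3c1 had none. The Sgk1 window with the full hormone element and the windows of both metallothionein genes are printed here, with the searched motifs in capitals. AGAACA and TGTTCT with any 3 bases between them (NNN) were searched as the full glucocorticoid response element, either of them as its single arm, which lies within the full element, and TGCACNC and TGCGCNC as cores of the metal response element, all on both strands.
Sgk1, window chr10:21993640-21993939, plus strand: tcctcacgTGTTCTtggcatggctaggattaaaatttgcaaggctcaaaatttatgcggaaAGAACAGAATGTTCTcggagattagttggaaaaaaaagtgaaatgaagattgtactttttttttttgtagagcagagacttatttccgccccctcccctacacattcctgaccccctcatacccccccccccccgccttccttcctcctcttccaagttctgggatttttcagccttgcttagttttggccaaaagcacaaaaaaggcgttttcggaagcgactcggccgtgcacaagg
Mt1, window chr8:94178839-94179138, plus strand: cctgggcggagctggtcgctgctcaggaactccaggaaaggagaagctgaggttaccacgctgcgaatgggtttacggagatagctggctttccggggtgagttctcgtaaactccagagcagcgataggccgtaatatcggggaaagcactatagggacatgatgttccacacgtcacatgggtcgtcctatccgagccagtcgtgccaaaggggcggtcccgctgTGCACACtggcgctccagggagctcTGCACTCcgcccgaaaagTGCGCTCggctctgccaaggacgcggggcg
Mt2, window chr8:94172368-94172667, plus strand: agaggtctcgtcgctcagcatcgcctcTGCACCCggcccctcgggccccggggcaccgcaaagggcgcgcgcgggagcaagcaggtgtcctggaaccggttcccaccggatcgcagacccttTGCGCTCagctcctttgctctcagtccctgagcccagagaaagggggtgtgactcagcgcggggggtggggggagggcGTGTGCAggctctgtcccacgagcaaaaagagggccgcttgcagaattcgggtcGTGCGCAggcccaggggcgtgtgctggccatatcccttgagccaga
The Sgk1 window was the only one of the 17 with the full element, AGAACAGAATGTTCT, whose first base lay 189 bases before the start, and it had a further single arm 242 bases before the start. Among the windows not shown, 2 other Sgk1 windows and 1 Tsc22d3 window held 1 single arm each, and 1 other Sgk1 window held 1 match of TGCGCNC. Of 32851 mouse windows, 3 held the full element (0.00913%), while 19.0% held a single arm. The Mt1 window held 2 matches of TGCACNC and 1 of TGCGCNC, and the Mt2 window 2 of each. These short cores were common, since 12.6% of all windows held TGCACNC and 15.4% held TGCGCNC. A match of letters describes the window and not binding.

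The deposited values had the steps of whole fragments averaged over 3 libraries, or over 2 libraries in WT 12-month and AD 4-month microglia. From these steps the value of each library was recovered for 98.7% of the values of the 20255 genes that reached 0.5 FPKM in a group. Library values below are given from the deepest to the shallowest library, and cannot be tied to the numbered samples. For Sgk1 they could not be recovered in AD astrocytes of 6 and 12 months or in any microglia group of 3 libraries, and for Mt1 in no astrocyte group, so only group values stand there. By these steps the depth was about 17800000 to 22800000 fragments per library in astrocytes and 13100000 to 20300000 in microglia. For comparisons FPKM was divided by a size factor, 0.1 was added and log2 taken. A gene of at least 0.5 FPKM in a group compared was counted as higher or lower when the log2 difference of the group values passed 0.5, with no test. Such a gene was called by limma on the recovered libraries under 2 conditions. The limma log2 difference had to pass 0.5, and the Benjamini-Hochberg adjusted p over all genes tested had to be under 0.05. The limma difference is between means of log2 library values and can differ from that of group values. These p-values measure only the spread between libraries within groups. For each gene limma pooled it over all groups of the cell type and drew it toward that of genes of like level. It is therefore not the spread of the compared groups alone. Each age could have been prepared apart from the others, which cannot be told apart from age.

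The sorts differed in purity. Microglia held their own markers at sums of 8840 to 14900 FPKM in AD mice and 9860 to 15500 FPKM in WT mice over 7 genes. Astrocyte sorts held 6 astrocyte markers at 258 to 356 FPKM in AD mice and 264 to 448 FPKM in WT mice, while 11 oligodendrocyte markers summed to 6720 to 10400 FPKM in AD mice and 7450 to 10400 FPKM in WT mice. Endothelial and mural markers were present too, at 319 to 1180 and 1100 to 1600 FPKM in AD astrocytes and at 437 to 2140 and 898 to 1890 FPKM in WT astrocytes. Markers of choroid plexus varied widely. Over 6 genes they summed to 172 to 3050 FPKM in AD astrocytes and 349 to 2670 FPKM in WT astrocytes. In microglia they summed to 193 to 5430 FPKM in AD mice and 9.58 to 3360 FPKM in WT mice. Microglia sorts also held endothelial markers at 15.9 to 373 FPKM in AD mice and 6.95 to 63.0 FPKM in WT mice. Their astrocyte markers summed to 4.31 to 30.7 FPKM in AD mice and 2.70 to 6.72 FPKM in WT mice. Neutrophil markers, 6 genes, summed to 46.6 to 2660 FPKM in AD microglia and 17.9 to 385 FPKM in WT microglia. The highest of these sums were in AD mice of 9 months (2660 FPKM) and 12 months (1550 FPKM). Transcripts described below as astrocytic are therefore those of the ACSA2 sort. In such samples fewer cells of a type and less RNA per cell cannot be told apart.

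Sgk1 encodes a serine/threonine kinase that regulates ion channels and cell survival downstream of steroid hormones. In astrocytes its group value was 22.8, 94.0, 459, 66.8 and 429 FPKM in AD mice of 2, 4, 6, 9 and 12 months, against 24.5, 85.2, 22.6, 30.7 and 72.9 FPKM in WT mice of these ages. At 6 and 12 months AD astrocytes stood 4.29 and 2.56 above WT astrocytes on the log2 scale of group values, and these are the values for which the gene was chosen. The level did not climb steadily with age in AD astrocytes, since the 9-month value lay below the 4-month value. Choroid plexus markers over the same ages summed to 662, 667, 3050, 172 and 1860 FPKM in AD astrocytes and 487, 2010, 2670, 349 and 748 FPKM in WT astrocytes. Oligodendrocyte markers summed to 9950 FPKM in AD and 7450 FPKM in WT astrocytes of 6 months, and to 7950 and 9920 FPKM at 12 months. Endothelial markers summed to 567 and 437 FPKM at 6 months and to 319 and 815 FPKM at 12 months. The part of these cells in the Sgk1 differences was not tested.

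**Figure D1:**
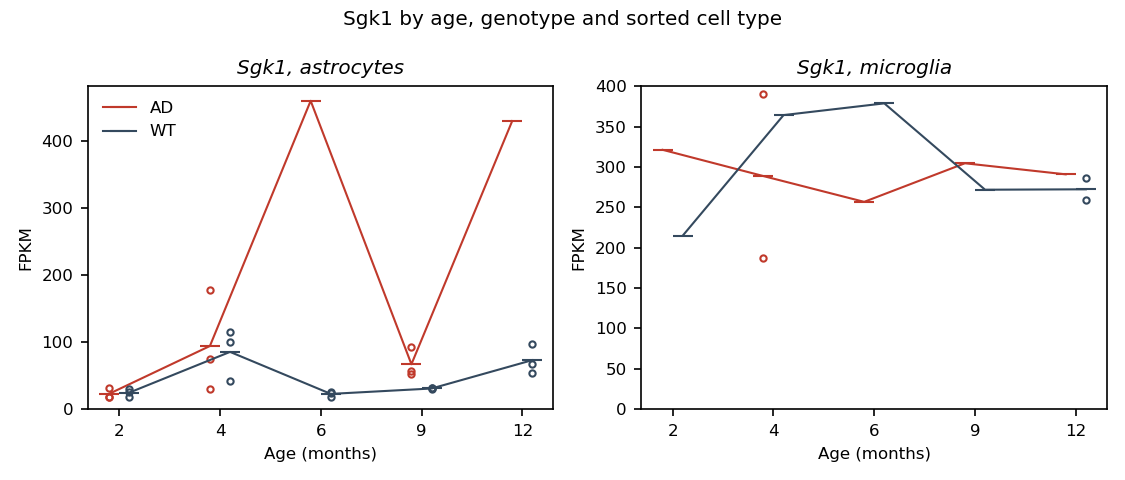
Sgk1 in sorted astrocytes (left) and microglia (right), FPKM against age in months with ages equally spaced, AD in red and WT in dark blue. Short bars are group values joined by lines, and open circles are recovered library values, absent where they were not recovered. AD astrocytes reach 459 and 429 FPKM at 6 and 12 months and lie near WT astrocytes at 2 months.

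The ages outside the choice showed smaller differences. At 9 months the AD astrocyte libraries held 52.0, 92.2 and 56.3 FPKM of Sgk1, against 31.4, 30.8 and 29.8 FPKM in WT libraries. The groups did not overlap, as was so for 31.2% of all genes with recovered libraries at that age, and AD was 1.07 ± 0.47 (SE) higher on the log2 scale by limma, with an adjusted p of 0.209, which missed the threshold. At 4 months both genotypes had 1 low library, with 29.5, 177 and 75.1 FPKM in AD astrocytes and 41.6, 114 and 99.9 FPKM in WT astrocytes. The spread within a genotype was wider than the difference between them, which was -0.13 ± 0.47 with an adjusted p of 0.898. At 2 months libraries held 18.5, 31.9 and 17.8 FPKM in AD astrocytes and 17.9, 29.8 and 25.8 FPKM in WT astrocytes.

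Sgk1 was also higher at some later ages in astrocytes of both genotypes. Against 2 months it rose by 1.71 ± 0.47 at 4 months in WT astrocytes (adjusted p = 0.0237, limma). In AD astrocytes it rose by 1.72 ± 0.47 at 4 months (adjusted p = 0.0321) and by 1.55 ± 0.47 at 9 months (adjusted p = 0.0323). Leaving out single libraries kept each of these calls in 2 of 6 fits (lost without library 1 or 3 of the 2-month group or library 2 or 3 of the later group). WT astrocytes of 12 months, which the choice used, stood 1.55 above 2 months by group values, with no test.

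Microglia had more Sgk1 than astrocytes in most groups and no comparable AD difference. Their group values ran from 257 to 321 FPKM in AD mice and from 215 to 379 FPKM in WT mice. Only the 2-month and 6-month differences passed the fold threshold, at 0.55 and -0.60 for AD over WT, and neither could be tested. The 2 recovered libraries of AD 4-month microglia held 187 and 390.1 FPKM and those of WT 12-month microglia 286 and 259 FPKM, so libraries of 1 group could differ by as much as groups.

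Among 7446 genes that reached 5 FPKM in astrocytes, those whose centred log2 values over the 10 groups lay nearest to Sgk1 were Arl4d (root mean square difference 0.69), Tyrobp (0.84), Gm19439 (0.89), Gm37419 (0.93) and Plekhf1 (0.94). Arl4d, a small GTPase, was 14.1, 36.9, 95.2, 26.9 and 90.8 FPKM in AD astrocytes from 2 to 12 months and 15.9, 31.7, 19.0, 24.0 and 45.9 FPKM in WT astrocytes. Of the other members, Tsc22d3, Zbtb16, Cdkn1a and Errfi1 ranked 16, 21, 26 and 30, and Pdk4, Mt1, Mt2 and Nr3c1 ranked 102, 211, 922 and 5321. The largest values in the Sgk1 profile are those of AD mice of 6 and 12 months, for which Sgk1 was chosen, so the ranking is a description. In microglia, where Sgk1 varied little, the nearest of 7595 genes were Btbd19, Araf, Ift74, Ufsp1 and Pola2 at 0.17 each.

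Tsc22d3, which encodes the leucine zipper protein GILZ and restrains inflammatory transcription factors, was higher in AD than in WT microglia at 6 months. At 6 months AD microglia held 85.0, 130.0 and 62.2 FPKM in their libraries, against 38.9, 35.3 and 31.4 FPKM in WT libraries. Every AD library lay above every WT library (20.9% of all genes did not overlap), and AD was 1.34 ± 0.31 (SE) higher on the log2 scale (adjusted p = 0.0309, limma). In the fits that left out 1 library the adjusted p ran from 0.0189 to 0.112 and the call was kept only in the fit without AD library 3, so each of the other 5 libraries decides it. At 12 months AD libraries held 69.1, 76.3 and 43.2 FPKM and WT libraries 39.5 and 45.6 FPKM, a difference of 0.53 ± 0.34 that did not pass (adjusted p = 0.211).

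Within AD microglia Tsc22d3 rose with age against 2 months, when its libraries held 13.8, 23.2 and 26.4 FPKM. The increase was 2.11 ± 0.31 at 6 months (adjusted p = 2.06e-05, limma) and 1.59 ± 0.31 at 12 months (adjusted p = 0.000282), and both calls held in all 6 fits that left out a library. At 9 months the AD libraries held only 24.0, 21.7 and 32.5 FPKM. The 4-month rise of 1.16 ± 0.34 (adjusted p = 0.045) rested on single libraries, being kept in 1 of 5 fits, the fit without AD 4-month library 1. In WT microglia no age passed the test, the largest increase being 0.79 ± 0.34 at 12 months (adjusted p = 0.153), and the difference between the genotypes' age changes was not tested.

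In astrocytes Tsc22d3 stood at 100.5 and 107 FPKM in AD mice of 6 and 12 months, against 47.1 and 44.3 FPKM in WT mice, within the contrasts used for the choice. The AD libraries were 94.4, 124 and 82.6 FPKM at 6 months and 93.7, 85.7 and 140.2 FPKM at 12 months. The WT libraries were 47.1, 47.7 and 46.5 FPKM at 6 months and 39.7, 51.9 and 41.2 FPKM at 12 months, with no overlap at either age, as for 33.3% of all genes at 6 months and 44.7% at 12 months. At 4 months the order was the other way, 36.1, 57.8 and 54.9 FPKM in AD libraries and 54.4, 105 and 60.8 FPKM in WT libraries, and the difference of -0.57 ± 0.21 did not pass (adjusted p = 0.128). In WT astrocytes it rose by 0.72 ± 0.21 at 4 months against 2 months (adjusted p = 0.0306), a call lost without WT 4-month library 2 or WT 2-month library 1 or 3.

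Fkbp5, the receptor's cochaperone and feedback inhibitor, was a microglial transcript here. It was lower in astrocytes in all 10 groups, with 0.351 to 0.999 FPKM in astrocytes and 5.41 to 11.9 FPKM in microglia. In AD microglia of 12 months its libraries held 15.3, 12.5 and 8.01 FPKM, against 6.14 and 7.77 FPKM in WT microglia. The lowest AD library lay close to the highest WT library, and AD was 0.74 ± 0.28 higher (adjusted p = 0.0336, limma), a call kept only in the fit without AD library 3 of the 5 fits that left out a library, with an adjusted p from 0.00758 to 0.215. Against 2 months Fkbp5 rose in AD microglia by 0.65 ± 0.25 at 6 months (adjusted p = 0.039, kept in 2 of 6 fits) and by 1.08 ± 0.25 at 12 months (adjusted p = 0.00132, kept in all 6). The 6-month call was lost without AD 2-month library 1 or 2 or AD 6-month library 2 or 3.

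In microglia Fkbp5 and Tsc22d3 moved together between libraries of the same group, with r = 0.77 over 28 libraries of 10 groups after each group's mean was removed. The corresponding r in astrocytes was 0.62 over 30 libraries. These libraries share preparation and depth, so r is a description.

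Zbtb16, a zinc finger repressor (PLZF) and a sensitive steroid target, was found in astrocytes and hardly in microglia, where the highest group value was 0.291 FPKM. At 2 months its astrocyte libraries held 0.522, 0.711 and 0.774 FPKM in AD mice and 0.630, 1.04 and 0.777 FPKM in WT mice. At 4 months they held 2.16, 3.57 and 2.26 FPKM in AD mice and 1.83, 10.3 and 4.84 FPKM in WT mice. Each 4-month library exceeded each 2-month library of its genotype (24.1% of all genes did not overlap in AD and 29.7% in WT astrocytes), and the rise was 1.81 ± 0.39 in AD astrocytes (adjusted p = 0.00788, limma) and 2.37 ± 0.39 in WT astrocytes (adjusted p = 0.000437).

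The rise of Zbtb16 against 2 months was also called at 9 months, by 1.92 ± 0.39 in AD astrocytes (adjusted p = 0.00227) and by 1.73 ± 0.39 in WT astrocytes (adjusted p = 0.00352). All 4 of these calls were kept in every fit that left out a library. The exception among ages was WT astrocytes of 6 months, with libraries of 0.405, 0.372 and 0.385 FPKM, where AD astrocytes held 2.83, 2.61 and 2.57 FPKM. That contrast belongs to the choice and has no test. Against 2 months the group values of WT astrocytes differed by -0.86 at 6 months and 1.52 at 12 months, also with no test.

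**Figure D2:**
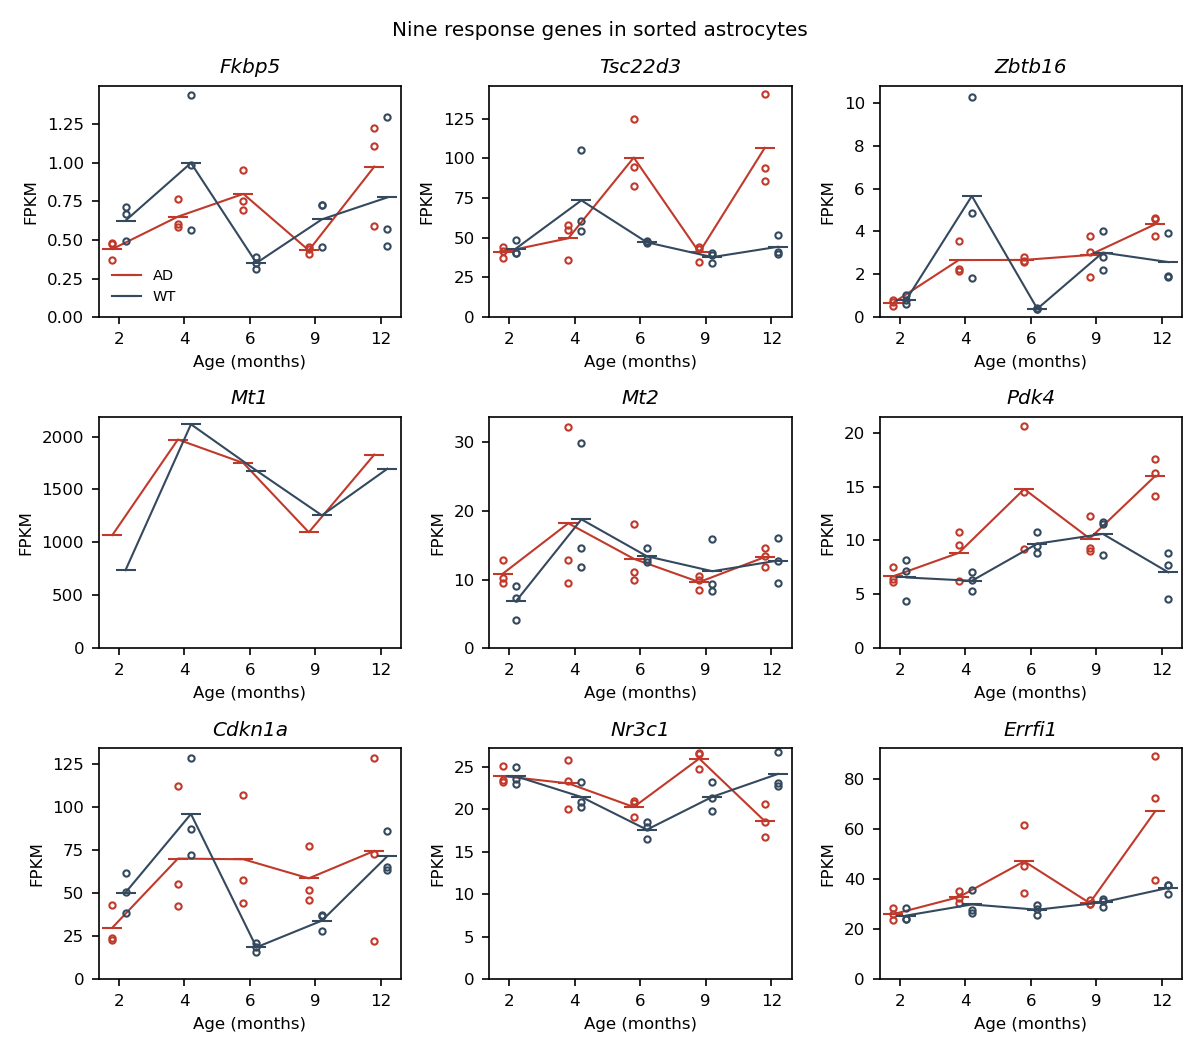
The 9 other genes in sorted astrocytes, FPKM against age in months with ages equally spaced, AD in red and WT in dark blue. Short bars are group values, lines join them and open circles are recovered library values, which Mt1 lacks. Zbtb16 libraries at 4, 9 and 12 months lie above those at 2 months in both genotypes, and Nr3c1 stays between 16.4 and 26.7 FPKM.

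Mt1 was the most abundant member, at 1069, 1972, 1750.2, 1095 and 1829 FPKM in AD astrocytes from 2 to 12 months and 737, 2116, 1678, 1255 and 1695 FPKM in WT astrocytes. AD and WT astrocytes differed past the fold threshold only at 2 months, by 0.51, without library values to test it. Every later age of WT astrocytes lay above 2 months, by 0.74 to 1.52 on the log2 scale of group values. Microglia held less, between 116 and 269 FPKM in AD mice and between 92.1 and 148 FPKM in WT mice. At 4 months its microglia libraries held 342 and 197 FPKM in AD mice, against 127, 91.5 and 197 FPKM in WT mice. The ranges met at 197 FPKM, and the difference of 1.02 ± 0.26 did not pass (adjusted p = 0.0978, limma). Against 2 months Mt1 rose in AD microglia by 1.20 ± 0.26 at 4 months (adjusted p = 0.0126, limma) and by 0.75 ± 0.24 at 12 months (adjusted p = 0.013), and in WT microglia by 0.62 ± 0.24 at 6 months (adjusted p = 0.0318). These calls were lost without AD 4-month library 1, without AD 12-month library 3, and in 4 of 6 fits (without library 1 or 2 of WT 2 months or library 1 or 3 of WT 6 months). Astrocyte markers summed to 59.3 and 2.13 FPKM in the 2 libraries of AD 4-month microglia, against 3.90, 2.86 and 13.4 FPKM in those of WT 4-month microglia and 16.3, 2.86 and 2.28 FPKM in those of AD 2-month microglia. Their part in the Mt1 differences was not tested.

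Mt2 had 6.82 to 18.8 FPKM in astrocytes, far under Mt1, but 432 of its 588 exon bases (73.5%) lie within the exons of the antisense gene Gm45774. Whether reads were counted by strand is not given in the sources used here, so its level is uncertain. Its astrocyte libraries held 10.3, 9.46 and 12.9 FPKM in AD mice of 2 months, against 4.08, 9.04 and 7.34 FPKM in WT mice of that age. The groups did not overlap (15.8% of all genes did not), yet the difference of 0.71 ± 0.36 did not pass (adjusted p = 0.53). In WT astrocytes Mt2 rose against 2 months by 1.41 ± 0.36 at 4 months (adjusted p = 0.0144, limma), a call lost without WT 2-month library 1 or WT 4-month library 2. Between astrocyte libraries of a group Mt2 went with the summed astrocyte markers (r = 0.82, 30 libraries, 4 of 6 markers recovered), and the part of astrocyte content in its differences was not tested.

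Pdk4, a kinase that shuts pyruvate dehydrogenase and is induced by fasting and steroids, had 6.67, 8.84, 14.8, 10.2 and 15.98 FPKM in AD astrocytes and 6.56, 6.25, 9.70, 10.6 and 7.04 FPKM in WT astrocytes. At 12 months its libraries held 16.2, 14.2 and 17.6 FPKM in AD astrocytes and 4.59, 7.70 and 8.84 FPKM in WT astrocytes, with no overlap, as for 44.7% of all genes, in a contrast used for the choice. At 2, 4 and 9 months limma did not call it, nor did it call a rise with age among the ages tested, the nearest being 0.70 ± 0.27 at 9 months in WT astrocytes (adjusted p = 0.0739). Between astrocyte libraries of a group Pdk4 went with the summed oligodendrocyte markers (r = 0.64, 30 libraries, 2 of 11 markers recovered). Its r was -0.55 with mural markers (5 of 7 recovered) and -0.32 with astrocyte markers (4 of 6 recovered). The part of these cells in the Pdk4 differences was not tested. Of 10 genes of the pyruvate dehydrogenase complex and its control, 0 passed the fold threshold between AD and WT astrocytes from 2 to 9 months, and 2 were higher and 1 lower at 12 months, where 31.2% of all genes passed in either direction. In AD microglia of 12 months 3 were higher and 1 lower (median 0.47 against 0.03 over all genes, of which 52.5% passed the threshold in either direction), all called by limma, which called 37.4% of all genes. Among the 10 genes were the subunit gene Dld (22.8 FPKM in AD, 14.3 in WT, 0.67 ± 0.12, adjusted p = 0.000142) and the phosphatase gene Pdp2 (0.914 and 1.73 FPKM, -0.84 ± 0.19, adjusted p = 0.00149). Such changes were common among all genes of this contrast, whose WT group had 2 libraries, so the count is not particular to this list. In microglia Pdk4 was at or under 0.867 FPKM, and between libraries of a group it went with markers of many other cell types, with r = 0.93 for mural cells, 0.92 for endothelial cells, 0.91 for neurons, 0.88 for astrocytes, 0.88 for oligodendrocyte precursors, 0.77 for oligodendrocytes and 0.71 for choroid plexus over 28 libraries, and with r = -0.83 for the 1 microglia marker recovered.

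The AD 4-month microglia value of Pdk4 came from 1 library. That library held 1.73 FPKM of Pdk4, and the other was listed at 0. The first library also held 737 FPKM of 8 endothelial and 441 FPKM of 7 mural markers, against 9.18 and 5.73 FPKM in the second. Library 1 of AD 2-month microglia (222 FPKM endothelial) and library 3 of WT 4-month microglia (145 FPKM) stood apart in the same way. Zbtb16, Mt2 and Pdk4 were highest in each of these 3 libraries within their groups.

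Cdkn1a encodes the cell cycle inhibitor p21, a target of p53 and of steroid receptors. Its astrocyte group values were 29.9, 70.0, 69.6, 58.5 and 74.5 FPKM in AD mice and 50.3, 95.9, 18.5, 33.9 and 71.4 FPKM in WT mice. At 9 months AD libraries held 46.2, 77.4 and 52.0 FPKM and WT libraries 28.0, 37.0 and 36.8 FPKM, without overlap, as for 31.2% of all genes, and the difference of 0.75 ± 0.45 did not pass (adjusted p = 0.364). The WT 6-month group value, which the choice used, differed by -1.37 from that of 2 months on the log2 scale, with no test. The 8 endothelial markers summed to 1180, 1020, 567, 540 and 319 FPKM in AD astrocytes from 2 to 12 months and 1710, 2140, 437, 581 and 815 FPKM in WT astrocytes. Between astrocyte libraries of a group Cdkn1a went with these markers (r = 0.57, 30 libraries, 4 of 8 markers recovered), and their part in its differences was not tested. AD libraries of 12 months spread from 22.2 to 128 FPKM, and all WT libraries of that age lay within this range. Of 16 other p53 target genes, 3 were higher and 0 lower of 15 past the filter in AD astrocytes of 9 months (median 0.11 against -0.03 over all genes, of which 8.42% were higher), and limma called 1, where it called 0.98% of all genes, the cell death gene Bbc3 (2.44 FPKM in AD, 1.57 in WT, 0.60 ± 0.15, adjusted p = 0.045). At 6 months 1 of 14 was higher, near the 9.4% of all genes, namely Pmaip1, with 0.767 FPKM in AD and 0.194 FPKM in WT.

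In microglia Cdkn1a was higher than at 2 months at several ages. It rose by 0.94 ± 0.28 at 4 months (adjusted p = 0.0454), 0.88 ± 0.25 at 9 months (adjusted p = 0.0125) and 0.68 ± 0.25 at 12 months (adjusted p = 0.031) in AD mice, by limma. In WT mice the rise was 0.76 ± 0.25 at 6 months (adjusted p = 0.0146) and 1.35 ± 0.28 at 12 months (adjusted p = 0.00604). All of these calls lost the threshold in 1 or more fits without a library. The AD calls were lost at 4 months without any 2-month library or AD 4-month library 1, at 9 months without AD 2-month library 2 or AD 9-month library 3, and at 12 months without AD 2-month library 2 or AD 12-month library 1 or 2. The WT calls were lost at 6 months without WT 2-month library 2 or WT 6-month library 1, and at 12 months without WT 12-month library 2.

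At 6 months Cdkn1a libraries of microglia held 33.2, 37.9 and 23.8 FPKM in AD mice and 59.3, 41.7 and 46.0 FPKM in WT mice. The groups did not overlap (20.9% of all genes did not), but -0.63 ± 0.25 for AD over WT did not pass (adjusted p = 0.296). In astrocytes of the same age the order was reversed, with 44.1, 107 and 57.8 FPKM in AD libraries and 21.2, 18.5 and 15.7 FPKM in WT libraries.

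**Figure D3:**
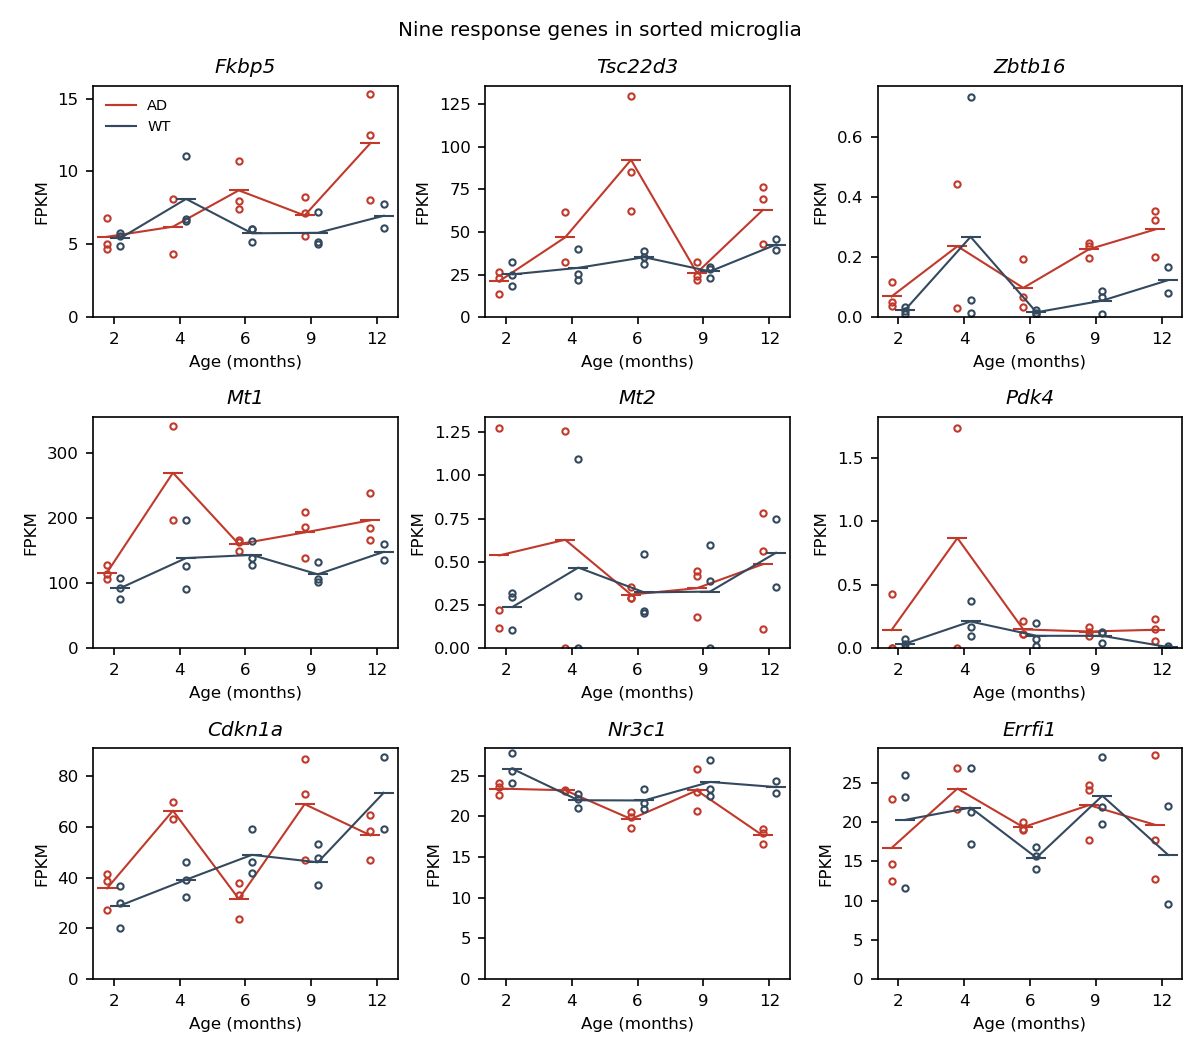
The 9 other genes in sorted microglia, FPKM against age in months with ages equally spaced, AD in red and WT in dark blue. Short bars are group values, lines join them and open circles are recovered library values (2 for AD 4 months and WT 12 months, otherwise 3). Tsc22d3 libraries of AD 6-month microglia lie at 62.2 to 130.0 FPKM, above the WT libraries at 31.4 to 38.9 FPKM.

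Nr3c1, the receptor itself, was the steadiest member. Its group values lay between 18.6 and 25.9 FPKM in AD astrocytes, 17.6 and 24.1 FPKM in WT astrocytes, 17.6 and 23.4 FPKM in AD microglia and 22.0 and 25.8 FPKM in WT microglia. The median SD of log2 values between libraries was 0.094 in astrocytes and 0.075 in microglia, against 0.44 for Sgk1 in astrocytes. At 12 months AD microglia held 16.6, 17.9 and 18.4 FPKM and WT microglia 22.9 and 24.3 FPKM, a difference of -0.41 ± 0.093 (adjusted p = 0.00117, limma) that lay within the fold threshold.

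Errfi1, a feedback inhibitor of the EGF receptor that steroids induce, was at 25.9, 32.7, 47.0, 30.4 and 67.0 FPKM in AD astrocytes and 25.4, 29.8, 27.7, 30.7 and 36.4 FPKM in WT astrocytes. At 12 months its libraries held 39.7, 72.3 and 89.0 FPKM in AD astrocytes and 37.6, 37.6 and 34.1 FPKM in WT astrocytes, in the contrast used for the choice. The lowest AD library lay just above the WT range. Limma called it in no contrast tested. Of 11 other genes of the EGF receptor family and its feedback, 0 were higher and 3 lower in AD astrocytes of 12 months (median -0.36 against 0.02 over all genes, of which 16.5% were lower), the lowest being the feedback inhibitor Spry2 with 5.10 FPKM in AD and 16.99 FPKM in WT. At 6 months 1 was higher and 3 lower, where 20.8% of all genes passed in either direction. In microglia Errfi1 stayed between 15.5 and 24.3 FPKM.

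Counted together, 7 of 10 members were higher and 0 lower in AD than in WT astrocytes at 6 months, where 9.4% of 14750 genes were higher, and 5 were higher and 0 lower at 12 months, where 14.6% of genes were higher. The list follows from these contrasts, so the counts add nothing to it. At 6 months the 6 astrocyte markers summed to 258 FPKM in AD astrocytes and 448 FPKM in WT astrocytes, and all 6 were lower past the fold threshold, among them Mlc1 (115 FPKM in AD, 215 in WT) and Aqp4 (41.0 and 72.7). At 12 months the astrocyte sums were 265 FPKM in AD and 264 FPKM in WT astrocytes, while endothelial markers summed to 319 and 815 FPKM and choroid plexus markers to 1860 and 748 FPKM. The part of these cells in the counts was not tested. At 4 months 0 members were higher and 4 lower (Fkbp5, Tsc22d3, Zbtb16 and Cdkn1a, 8.95% of all genes lower), and without WT 4-month library 2 none was, and without AD 4-month library 1 there were 2. At 9 months 2 were higher (Sgk1 and Cdkn1a, 8.42% of genes higher), and at 2 months 2 were higher (Mt1 and Mt2) and 1 lower (Cdkn1a, 12.1% of genes past the threshold in either direction). Limma called 0 of 9 members tested at 2, 4 and 9 months, where it called 0.0265%, 1.89% and 0.98% of genes, and 0, 2 and 2 members had an unadjusted p under 0.05.

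In microglia the members past the fold threshold for AD over WT were 2 of 8 past the filter at 2 months, 4 of 9 at 4 months, 4 of 7 at 6 months, 1 of 7 at 9 months and 2 of 8 at 12 months. All were higher except Sgk1 and Cdkn1a at 6 months. Of all genes, 7.59%, 17.7%, 12.3% and 25.7% were higher at 2, 4, 9 and 12 months, and 14.9% passed the threshold in either direction at 6 months, so the 9- and 12-month counts were near the background. The 4-month members were Tsc22d3, Mt1, Pdk4 and Cdkn1a, and without AD 4-month library 1 the differences of Tsc22d3, Mt1 and Cdkn1a were 1.09, 0.51 and 0.68, against 0.69, 0.96 and 0.76 with it. Limma called 1 of 6 members at 6 months (1.06% of genes) and 1 of 7 at 12 months (37.4%). It called 0 of 7, 0 of 8 and 0 of 6 at 2, 4 and 9 months, where 0.0428%, 0.293% and 2.75% of genes were called and 0, 2 and 1 members had an unadjusted p under 0.05.

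**Figure D4:**
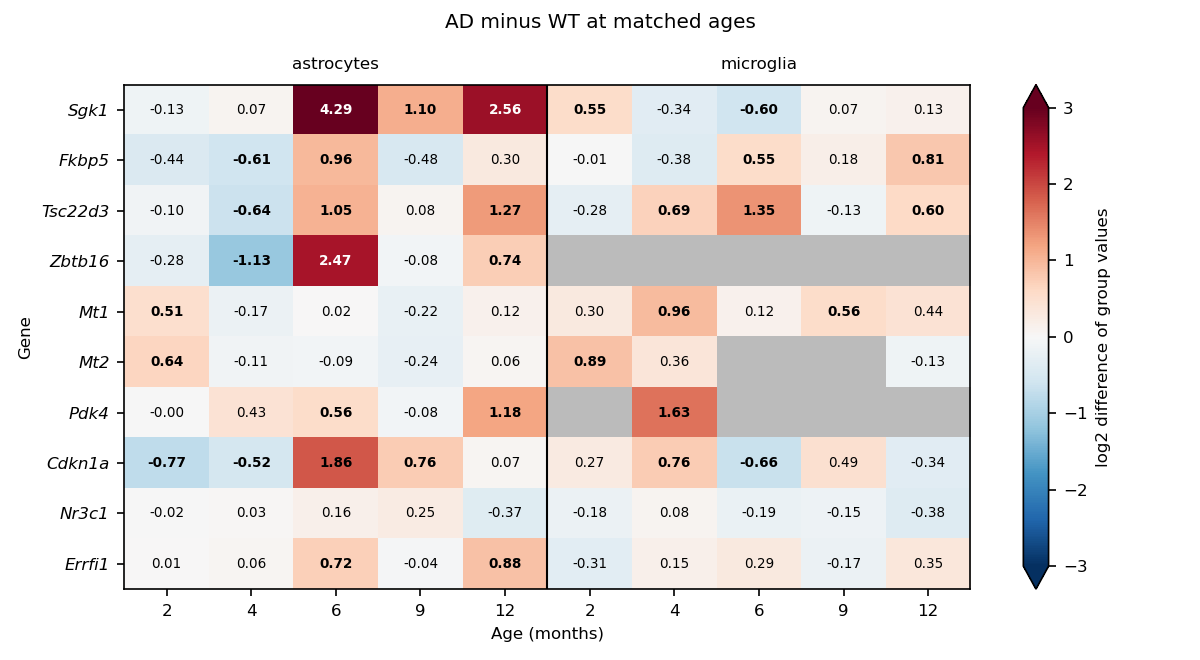
Log2 difference of group values, AD over WT, for each gene (rows) and age (columns) in astrocytes and microglia. Colour runs from lower in AD to higher in AD and is capped at 3 in size, bold numbers pass the threshold of 0.5, and grey cells are under the filter of 0.5 FPKM. The 7 bold values of 6-month astrocytes include 4.29 for Sgk1 and 2.47 for Zbtb16, and the 4-month column holds 4 bold negative values.

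Against 2 months, limma called Sgk1, Tsc22d3, Zbtb16 and Mt2 higher at 4 months in WT astrocytes, 4 of 9 members where 7.81% of genes were called in either direction. At 9 months it called Zbtb16 (12.3%). WT astrocytes of 6 and 12 months, which the choice used, were not tested. By group values 3 of 10 members were higher and 3 lower at 6 months, where 54.2% of genes passed in either direction, and 4 were higher and 0 lower at 12 months, where 16.2% of genes were higher. In AD astrocytes it called Sgk1 and Zbtb16 at 4 months (2 of 9, 4.38% of genes) and at 9 months (2 of 8, 8.96%). AD microglia had 3 of 8 members called at 4 months (5.1% of genes), 2 of 7 at 6 months (30.9%), 1 of 7 at 9 months (18.4%) and 4 of 7 at 12 months (34%). WT microglia had 0 of 6 at 4 months (2.53% of genes, 3 members with an unadjusted p under 0.05), 2 of 6 at 6 months (39.4%), 0 of 6 at 9 months (3.81%, 1 such member) and 1 of 7 at 12 months (7.03%). AD astrocytes of 6 and 12 months, which the choice used, had 8 of 10 members higher than at 2 months by group values at each age, where 17.9% and 18.7% of genes were higher. All comparisons with 2 months share those libraries.

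**Figure D5:**
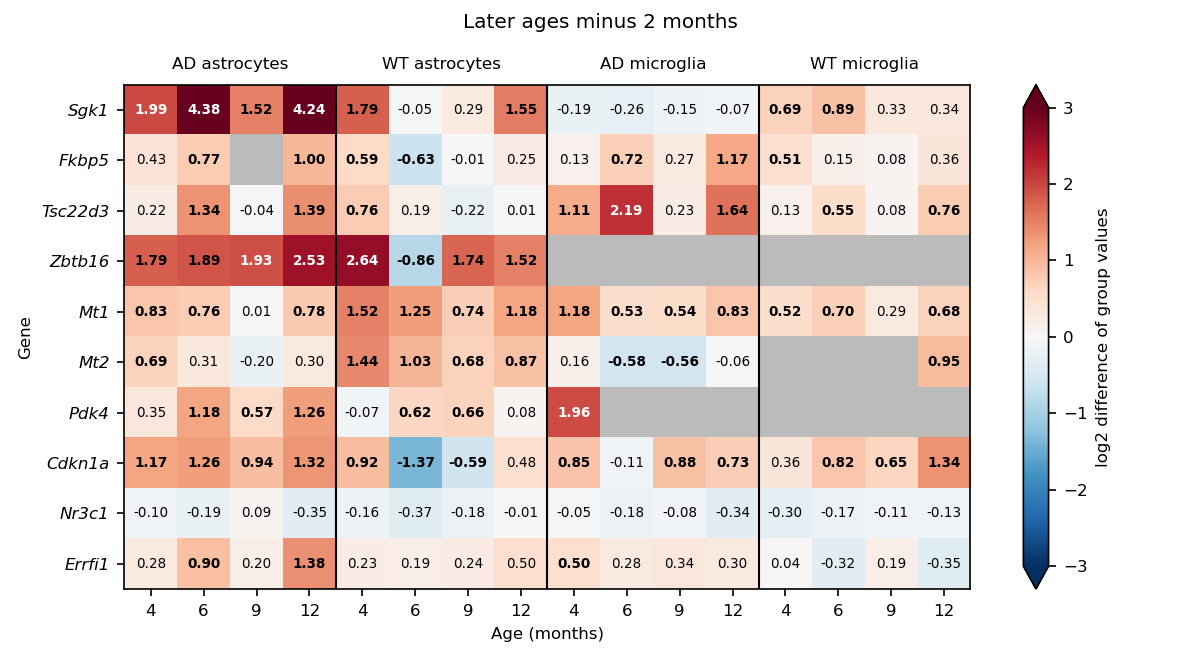
Log2 difference of group values, each later age over 2 months, for each gene (rows) and age (columns) in the 4 combinations of genotype and cell type. Colour is capped at 3 in size, bold numbers pass the threshold of 0.5, and grey cells are under the filter of 0.5 FPKM. Zbtb16 is bold at every later age in both astrocyte panels, and is negative in WT astrocytes only at 6 months.

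In some astrocyte groups many members were highest in the same library. The number that shared a library was 5 of 9, 8 of 9, 5 of 8, 6 of 9 and 7 of 8 recovered members in AD astrocytes from 2 to 12 months and 6, 6, 4, 4 and 5 of 9 in WT astrocytes. With 3 libraries the lowest possible count is 3 of 9, and the count that chance gives, which is higher, was not computed. In microglia the counts were 4, 5, 5, 5 and 4 in AD mice and 5, 7, 3, 7 and 7 in WT mice. They were of 9 members, or of 10 in the groups of 2 libraries. Between astrocyte libraries of a group Sgk1 went with Tsc22d3 (r = 0.72), Zbtb16 (r = 0.69), Cdkn1a (r = 0.61) and Fkbp5 (r = 0.51) over 24 libraries of 8 groups, but not with Nr3c1 (r = 0.14) or Mt2 (r = 0.016). Over the same libraries the r of Sgk1 with summed markers was -0.003 for endothelial cells (4 of 8 markers recovered) and 0.18 for mural cells (5 of 7). It was 0.29 for oligodendrocytes (2 of 11) and 0.15 for choroid plexus (5 of 6). These libraries leave out AD astrocytes of 6 and 12 months, where Sgk1 was highest, so the values of r do not cover those groups. Library 2 of the 4-month groups decided the direction of Sgk1, which was -0.77 for AD over WT without the AD library and 0.34 without the WT library, against 0.07 with both.

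Between the cell types, Mt1, Mt2 and Pdk4 were higher in astrocytes than in microglia in 10 of 10 groups and Zbtb16 in 9 of 9 past the filter. Fkbp5 was lower in 10 of 10, and Sgk1 was lower in 8 and higher in 1, AD mice of 6 months. Nr3c1 differed past the threshold in 0 of 10. Of all genes, 72.8%, 70.6%, 72.8%, 75% and 73.1% passed the threshold between the cell types from 2 to 12 months in AD mice and 73.1%, 73.3%, 74.4%, 75% and 75.5% in WT mice, so most genes differed this much.

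Of 24 other glucocorticoid target genes, 0 were higher and 7 lower in AD than in WT astrocytes at 4 months, with a median log2 difference of -0.44 against -0.06 over all genes, of which 8.95% were lower, and limma called 0 of 23 and 1.89% of all genes. The lowest were Lcn2 (0.726 FPKM in AD, 1.41 in WT), Map3k6 (0.422 and 0.836) and Hif3a (0.784 and 1.46). Against 2 months, 15 of 24 were higher and 2 lower at 4 months in WT astrocytes (median 0.82 against 0.00 over all genes, of which 12.9% were higher), and limma called 8 higher and 1 lower of 23 and 7.81% of all genes, among them Plin4, a lipid droplet coat gene (1.04 FPKM at 4 months, 0.160 at 2 months, 2.01 ± 0.45, adjusted p = 0.00543). In AD astrocytes 12 of 23 were higher and 1 lower (median 0.51, with 13.2% of all genes higher), and limma called 2 of 22 and 4.38% of all genes. Endothelial markers summed to 1180 and 1020 FPKM in AD astrocytes of 2 and 4 months and to 1710 and 2140 FPKM in WT astrocytes. Their part in these 4-month counts was not tested. WT 4-month library 2, on which the members' 4-month count depended, is in these comparisons too, and its part was not tested. Between AD and WT astrocytes of 6 months 15 were higher and 1 lower of 23 (median 0.64 against -0.04 over all genes, of which 9.4% were higher), with Arl4d at 95.2 FPKM in AD and 19.0 in WT and Per1, a clock gene that steroids induce, at 2.93 and 0.634. At 12 months 6 were higher and 3 lower of 22 (median 0.17 against 0.02 over all genes, of which 31.2% passed in either direction). Because the members were listed from the 6- and 12-month contrasts, these 2 counts follow the same libraries. In microglia of 4 months 11 were higher and 1 lower of 20 (median 0.56 against -0.02 over all genes, of which 17.7% were higher), led by Rasd1 (6.87 FPKM in AD, 0.978 in WT) and Cavin2 (9.09 and 1.49), of which limma called 0 of 17, and the same libraries held the endothelial markers given above.

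Genes that act with Sgk1, on the receptor or on metals were counted in the same way. Of 11 Sgk relatives, regulators and substrates, 0 passed the fold threshold between AD and WT astrocytes at any age, where 12.1% to 31.2% of all genes passed. Of 13 chaperones, steroid enzymes and coregulators, 6 were lower and 1 higher in AD microglia of 12 months (median -0.32 against 0.03 over all genes, 52.5% of which passed the threshold), and limma called 5 of 10 lower, where it called 21% of all genes lower, among them the chaperone Hsp90aa1 (134 FPKM in AD, 288 in WT, -1.10 ± 0.14, adjusted p = 9.48e-05). Of 20 zinc and metal genes measured, 3 were higher and 5 lower in AD astrocytes of 12 months (median 0.05 against 0.02 over all genes, 31.2% of which passed the threshold), including the zinc importer Slc39a12 (57.2 FPKM in AD, 28.2 in WT) and the importer Slc39a1 (1.64 and 3.87). Mt3, the brain metallothionein, was at 128 FPKM in AD astrocytes of 2 months and 79.4 FPKM in WT, a difference of 0.65 ± 0.31 that did not pass (adjusted p = 0.503).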

How the data were processed

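Sorted astrocytes and microglia were sequenced by the authors after SMART-Seq amplification. Alignment was by HISAT2 and counting by featureCounts according to the methods, whereas Bowtie 0.12.2 and the build mm8 appear in the submitters' notes. The FPKM values deposited number 1 for each gene in each group and were taken as means over libraries. The planned design had no test and applied the fold threshold of 0.5 on log2(FPKM / median-of-ratios size factor + 0.1) to genes of at least 0.5 FPKM in a group compared.

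After the data were seen, whole fragments per library were searched for that give each deposited value, with GENCODE M21 gene lengths or, for 1858 genes (among them Fkbp5, Cdkn1a and Nr3c1), a length found from the values. The matching rule was changed several times after results were seen: the tolerance was widened, rounding at the 15th digit was allowed, and a limit of 30000 fragments was set for groups of 3 libraries. With lengths 1 base too long, 0.0614% of values of 100 to 10000 fragments and 1.39% of 10000 to 30000 fragments still had a solution, against 99.6% with the true length in both ranges. The SD of log2 values between libraries had a median of 0.121, and 0.996 with wrong lengths. Simulated recovery used the rounding of the search and so tested the code only. Limma 3.58.1 (R 4.3.3, trended variances, fitted within a cell type) was run on these values. No p is given for contrasts with AD or WT astrocytes of 6 or 12 months. In data simulated on AD against WT microglia at 6 months it called 36 of 100 genes changed by log2 1, 96 of 100 changed by log2 2 and 8 of 14012 unchanged genes. The simulated counts used each gene's mean level but the same fixed spread for every gene, not the spread of the data. These rates therefore do not give the power or false calls of the real contrast. No counting interval was computed.

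The members and gene lists were chosen with earlier results of these data known. Named genes are all 10 members, up to 3 highest and 3 lowest of each other list, and the 5 genes nearest to Sgk1. Alternatives were FPKM with no size factor, quantile normalization, size factors computed on genes at 1 FPKM or more, a pseudocount of 1, no filter, 4 months as the reference and, added later, limma and leaving out libraries. Python 3.11.15, NumPy 2.4.6, pandas 2.3.3, numba 0.67.0 and Matplotlib 3.10.9 were used.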

Additional observations from a re-analysis of the deposited data

Results flagged for a closer look

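Members are listed here because AD over WT passed the fold threshold in opposite directions in the cell types or at different ages. The values are log2 differences of group values, and the difference between them was not tested in any case. Sgk1 at 6 months was 4.29 in astrocytes and -0.60 in microglia, and within microglia it was 0.55 at 2 months and -0.60 at 6 months. Fkbp5 in astrocytes was 0.96 at 6 months and -0.61 at 4 months. Tsc22d3 at 4 months was -0.64 in astrocytes and 0.69 in microglia, and within astrocytes it was 1.05 at 6 months and 1.27 at 12 months against -0.64 at 4 months. Zbtb16 in astrocytes was 2.47 at 6 months and 0.74 at 12 months against -1.13 at 4 months. Cdkn1a was -0.52 in astrocytes and 0.76 in microglia at 4 months, and 1.86 in astrocytes and -0.66 in microglia at 6 months. Within astrocytes Cdkn1a was -0.77 at 2 months, -0.52 at 4 months, 1.86 at 6 months and 0.76 at 9 months. The 4-month astrocyte values depend on library 2 of the WT group, without which Tsc22d3, Zbtb16, Fkbp5 and Cdkn1a were at -0.28, -0.38, -0.29 and -0.25.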

How the results depend on the processing

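No paired analysis was possible because the recovered libraries carry no replicate number. Of 2203 alternatives computed for single members, 1980 moved the value by less than 1 SD between libraries, 206 moved it further and 17 turned the sign of a value past the threshold, all with 4 months in place of 2 months as the reference. In AD astrocytes these were Sgk1 at 9 months (-0.47), Cdkn1a at 9 months (-0.24) and Mt1 at 6 and 12 months (-0.075 and -0.047), and in WT astrocytes Sgk1 at 12 months (-0.24), Zbtb16 at 9 and 12 months (-0.91 and -1.12), Mt1 at 6, 9 and 12 months (-0.26, -0.78 and -0.34) and Mt2 at these ages (-0.41, -0.76 and -0.57). In AD microglia they were Mt1 at 6, 9 and 12 months (-0.65, -0.63 and -0.35) and Cdkn1a at 12 months (-0.12). In each of these 17 the group value at 4 months lay above that of the later age and the value at 2 months lay below it. The sign thus turned because another comparison was made. Why the 4-month values were high was not tested. Of 1132 alternatives to a value past the threshold 83 fell within it, and of 1071 alternatives to a value within it 70 passed it. Where libraries of a group spread widely, a value could move far and still count as moved by less than 1 SD. Sgk1 for AD over WT astrocytes of 4 months was counted so, at 0.07 with all libraries and -0.77 without AD library 2. The count of 1980 is therefore no measure of how steady the values were.

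The count of members for AD against WT that limma also called was 0 in astrocytes of 2, 4 and 9 months (3, 4 and 2 by fold), 0 in microglia of 2, 4 and 9 months (2, 4 and 1 by fold) and 1 at 6 and at 12 months (4 and 2 by fold). Over the later ages against 2 months it gave 10 in AD microglia (16 by fold) and 3 in WT microglia (12). Of all genes it called 5.1%, 30.9%, 18.4% and 34% in AD microglia at 4, 6, 9 and 12 months. In WT microglia it called 2.53%, 39.4%, 3.81% and 7.03% of all genes at these ages. All of these comparisons share the 2-month libraries of their genotype. Without library values, Mt1 in astrocytes of 2 months and Sgk1 in microglia of 2 and 6 months, and in WT microglia of 4 and 6 months against 2 months, could not be tested. With 4 months as the reference, AD astrocytes of 6, 9 and 12 months had 12 (20 with 2 months) and WT microglia 2 (9). For AD against WT microglia, no filter and quantile normalization each gave 4 at 12 months, a pseudocount of 1 and quantile normalization each gave 1 at 2 months, and no size factor, no filter, quantile normalization and size factors from higher genes each gave 2 at 9 months.

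Leaving out 1 library at a time, the counts for AD against WT ran in astrocytes from 3 to 3, 0 to 5, 5 to 7, 2 to 3 and 5 to 6 at 2, 4, 6, 9 and 12 months, and in microglia from 1 to 3, 3 to 6, 3 to 4, 0 to 2 and 2 to 5. The libraries that moved a count by over 1.5 times were, in astrocytes of 4 months, WT library 2 (0) and AD library 1 (2), and in microglia AD 2-month library 1 (1), AD 9-month libraries 2 and 3 (2 and 0), WT 9-month library 2 (2) and WT 12-month library 1 (5). The counts over later ages against 2 months ran from 24 to 25 and 19 to 24 in AD and WT astrocytes and from 13 to 19 and 10 to 14 in AD and WT microglia, and those between the cell types from 71 to 74. Depth limits members under 0.5 FPKM, which rest on few fragments.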

Other observations

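Immediate-early genes, which cells switch on within minutes of a stimulus or of dissociation, differed between genotypes in several groups. In microglia of 6 months 0 of 17 were higher and 13 lower in AD than in WT, with a median log2 difference of -0.86 against -0.051 over all genes, of which 6.13% were lower. Limma called 3 of 9 lower and 1.06% of all genes, among them Ier3 (146 FPKM in AD, 502 in WT, -1.77 ± 0.24, adjusted p = 0.000382) and the nuclear receptor Nr4a1 (34.0 and 105 FPKM, -1.61 ± 0.21, adjusted p = 0.000382). In microglia of 12 months 0 of 18 were higher and 10 lower (median -0.64 against 0.03 over all genes, of which 26.8% were lower), with Fosb at 1.22 FPKM in AD and 5.98 FPKM in WT (-2.21 ± 0.37, adjusted p = 7.21e-05). In astrocytes of 12 months 2 of 17 were higher and 10 lower (median -0.66 against 0.02 over all genes, of which 16.5% were lower), with Jun at 30.4 FPKM in AD and 78.8 FPKM in WT.

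Neutrophil markers summed to 2660 FPKM in AD microglia of 9 months and 1550 FPKM in those of 12 months, against at most 385 FPKM in any WT microglia group. The part of these cells in the members' differences in microglia of 9 and 12 months was not tested. Lcn2, a steroid and inflammation target of neutrophils, was 58.7 FPKM in AD microglia of 9 months and 1.05 FPKM in WT (5.95 ± 1.47, adjusted p = 0.0281, limma).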
